A study of Mus musculus with 16 samples.

Results

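The glutathione and antioxidant enzymes form a module of 58 genes among the 41325 genes of the deposited tables. They were chosen by name: the alpha, mu, kappa, omega, pi, theta and zeta glutathione transferases, the membrane-bound microsomal transferases, the glutathione peroxidases and the peroxiredoxins, together with 18 single genes. The single genes are the superoxide dismutases Sod1, Sod2 and Sod3, catalase (Cat), the thioredoxin genes Txn1, Txn2, Txnrd1, Txnrd2 and Txnip, the glutathione genes Gclc, Gclm, Gss and Gsr, the inducible enzymes Nqo1, Hmox1 and Srxn1, and the regulators Nfe2l2 and Keap1. The rule uses names and no measured value. RNA-seq was done on immortalized preadipocytes, the committed precursors of fat cells, from wild-type C57Bl6/J mice. The 4 groups of 4 libraries were cells pre-treated with interleukin-13 (IL-13), a type 2 cytokine, for 16 h and taken at day 6 of adipocyte differentiation, untreated cells at day 6, IL-13 pre-treated cells at day 0, and untreated cells at day 0. The labels say neither whether the cells are 1 clone, nor whether IL-13 stayed in the medium after day 0, nor from how many cultures each group's 4 libraries were drawn, so p-values measure the spread between libraries, which may be technical.

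Glutathione is a tripeptide thiol made by glutamate-cysteine ligase and glutathione synthetase. Glutathione peroxidases spend it to reduce hydrogen peroxide and lipid peroxides, glutathione transferases couple it to reactive molecules, and glutathione reductase restores it with NADPH. Superoxide dismutases turn superoxide into hydrogen peroxide, which catalase, peroxiredoxins and peroxidases remove, while thioredoxin recharges the peroxiredoxins. Nrf2, the product of Nfe2l2, drives many of these genes through antioxidant response elements and is held back by Keap1. Adipocyte differentiation brings more mitochondria and peroxisomes, both of which generate oxidants.

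Each library held between 15253031 and 18112087 counts assigned to genes. Of the 58 members, 47 passed the filter on low counts at day 0 and 48 in each fit that included day 6. The other 10 were in no test. Gpx2, Gpx5 and Prdx6b had no count in any library, and Gpx6, Gstm3, Gsta1, Gsta2, Gstp3, Gstt4 and Gstm6 had between 1 and 62 counts over all 16 libraries. Summed markers of mature adipocytes ranged from 25700 to 27530 CPM, counts scaled to library size, in IL-13 pre-treated and from 24590 to 26590 in untreated cells at day 6, against 475.1 to 497.2 in IL-13 pre-treated and 510.7 to 551.1 in untreated cells at day 0. The macrophage list, with Adgre1 and C1qa at 0, summed to at most 11.87 CPM. The erythroid genes Hba-a1, Hbb-bs and Hbb-bt and the hepatocyte genes Ttr, Cyp3a11 and Tat had no count in any library. One further measure moved with IL-13, and its source cannot be told apart from the pre-treatment. An index of 26 nuclear-retained RNAs (mean log2 CPM) was 5.63 ± 0.23 in IL-13 pre-treated and 6.46 ± 0.238 in untreated cells at day 6 (SD, n = 4 each). At day 0 it was 5.37 ± 0.0797 in IL-13 pre-treated and 6.04 ± 0.317 in untreated cells. On each day all 4 untreated libraries lay above every IL-13 library, with an exact two-sided permutation p of 0.0286, the smallest that 4 against 4 libraries allow. The index was taken up because earlier results of these data had shown that libraries differ in nuclear RNA. Its p therefore describes a difference already seen in these libraries and is not an independent test.

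The short DNA site bound by Nrf2 with its small Maf partners was looked for in promoters. RefSeq (GRCm38.p6) gave a window of 250 bases before to 50 bases after the start for 50 of the 58 members. The other 8, Gclc, Gsr, Gsta4, Gstt2, Hmox1, Prdx6, Prdx6b and Sod3, had no window and were not searched. The core TGACNNNGC was searched on both strands (GCNNNGTCA on the other). It was in 10 of the 50 members, or 20%, and in 14% of the 27025 genes searched. Windows on a chromosome that holds no member were left out of the search. By window the core was in 15.6% of those of members and 12.4% of all searched. The 10 were Gclm, Gsta3, Gstm5, Gstm7, Mgst1, Nfe2l2, Prdx1, Sod1, Srxn1 and Txnrd1. The 250 bases before the start are given for 4 of them, chosen after their values were seen because they hold the regulatory subunit of glutathione synthesis, the most abundant member at day 6, the most abundant peroxiredoxin at day 0 and a member that did not follow them. The stretches lie at chr3:122245307-122245556 for Gclm, chr6:138140277-138140526 for Mgst1, chr4:116685349-116685598 for Prdx1 and chr10:82858956-82859205 for Txnrd1, all on the plus strand and printed 5′ to 3′. Capitals mark the match to the core, whose first base stands 134 bases before the start in Gclm, 56 in Mgst1, 133 in Prdx1 and 92 in Txnrd1. This RefSeq start is that of the deposited gene for Gclm. It lies 211 bases inside the deposited gene for Mgst1, 55 for Prdx1 and 25255 for Txnrd1, so that most of the Mgst1 stretch, the end of the Prdx1 stretch and all of the Txnrd1 stretch fall within the gene as counted.
Gclm: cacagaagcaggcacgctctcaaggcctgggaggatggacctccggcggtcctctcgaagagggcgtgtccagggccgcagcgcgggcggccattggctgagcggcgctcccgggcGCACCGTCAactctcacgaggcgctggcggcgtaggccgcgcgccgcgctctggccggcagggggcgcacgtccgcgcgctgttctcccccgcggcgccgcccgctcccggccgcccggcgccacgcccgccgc
Mgst1: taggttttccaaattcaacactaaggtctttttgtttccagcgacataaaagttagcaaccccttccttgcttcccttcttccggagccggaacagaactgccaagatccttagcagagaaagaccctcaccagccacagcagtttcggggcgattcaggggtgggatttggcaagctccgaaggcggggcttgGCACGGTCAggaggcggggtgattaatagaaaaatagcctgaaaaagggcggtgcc
Prdx1: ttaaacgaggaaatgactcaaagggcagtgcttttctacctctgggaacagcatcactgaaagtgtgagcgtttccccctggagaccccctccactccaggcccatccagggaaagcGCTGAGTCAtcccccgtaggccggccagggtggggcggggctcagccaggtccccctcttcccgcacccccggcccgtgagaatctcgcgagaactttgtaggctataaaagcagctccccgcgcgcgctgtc
Txnrd1: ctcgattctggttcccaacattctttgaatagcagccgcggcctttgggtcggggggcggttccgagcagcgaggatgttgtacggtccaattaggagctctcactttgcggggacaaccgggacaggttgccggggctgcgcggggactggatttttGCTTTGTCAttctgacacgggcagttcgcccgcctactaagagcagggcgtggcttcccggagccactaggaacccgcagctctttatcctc
A match is a string of letters, not a measured binding site. A STAT-type palindrome, TTC and GAA with 4 bases between them, was in 3 of the 50 members (Gstm1, Gstm3 and Gstm6), or 6%, against 8.01% of the genes searched. By window it was in 6.25% of those of members and 6.95% of all.

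The module took a larger share of the messenger RNA at day 6. Summed over members, the deposited TPM, a transcript share that allows for gene length, was 12718 ± 227 in IL-13 pre-treated and 12329 ± 477 in untreated cells at day 6, against 7647 ± 73.6 in IL-13 pre-treated and 7565 ± 196 in untreated cells at day 0 (SD, n = 4 each). As a share of all transcripts this was 1.27% in IL-13 pre-treated and 1.23% in untreated cells at day 6, against 0.765% in IL-13 pre-treated and 0.757% in untreated cells at day 0. The gain between days was far larger than the spread between libraries, and was uneven between families, as the plot of summed TPM by role shows. Membrane glutathione transferases reached 2711 ± 69.8 TPM in IL-13 pre-treated and 2550.1 ± 29.7 in untreated cells at day 6, against 234 ± 21.8 in IL-13 pre-treated and 272 ± 12.6 in untreated cells at day 0. Their part of the module's TPM was 21.3% in IL-13 pre-treated and 20.7% in untreated cells at day 6, against 3.06% in IL-13 pre-treated and 3.59% in untreated cells at day 0. The superoxide dismutases with catalase also stood higher at day 6, at 1430.2 ± 39 TPM in IL-13 pre-treated and 1452 ± 24.8 in untreated cells, against 287 ± 7.16 in IL-13 pre-treated and 299 ± 4.32 in untreated cells at day 0. Mu glutathione transferases went the other way, with 314 ± 20.6 TPM in IL-13 pre-treated and 293 ± 17.8 in untreated cells at day 6, against 620.3 ± 8.07 in IL-13 pre-treated and 634 ± 21.7 in untreated cells at day 0.

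**Figure D1:**
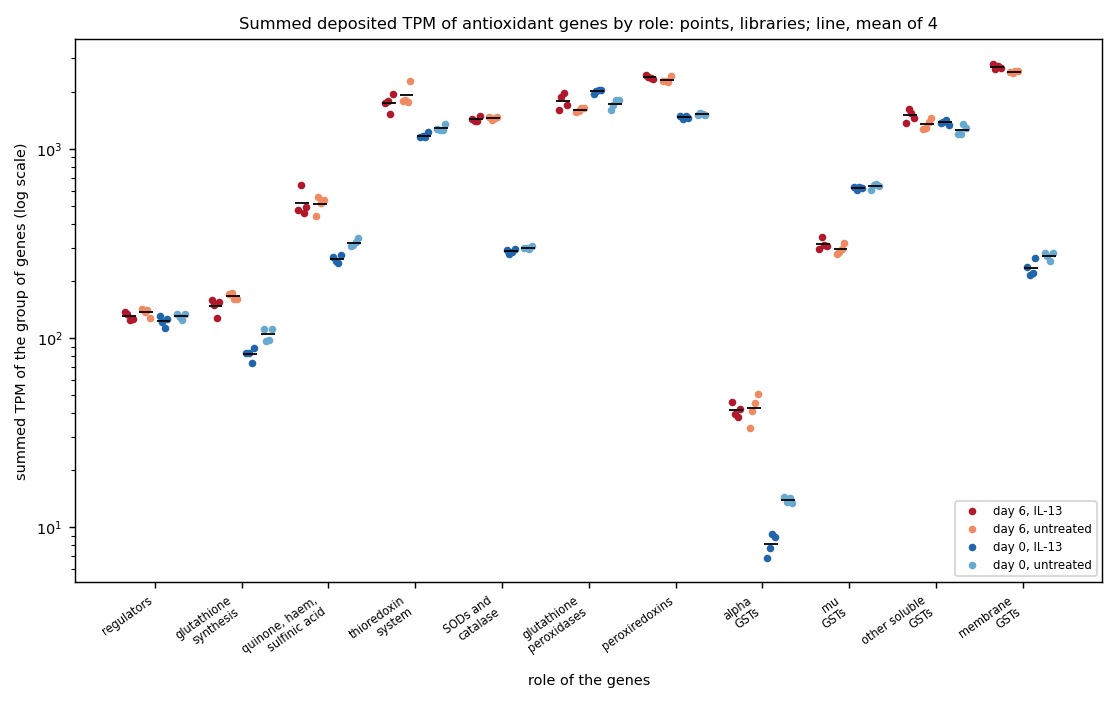
Summed deposited TPM (log axis) of the antioxidant genes in 11 roles, with a point for each library and a line at the mean of 4. Membrane glutathione transferases and the superoxide dismutases with catalase stood far higher at day 6, mu glutathione transferases lower, and glutathione peroxidases moved less, with 1787 TPM in IL-13 pre-treated and 1609 TPM in untreated cells at day 6, against 2014 TPM in IL-13 pre-treated and 1732 TPM in untreated cells at day 0.

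The order of the members by TPM differed between the days. In untreated cells at day 6 the most abundant was Mgst1, a membrane transferase with peroxidase activity, at 1527 TPM. It was followed by Gpx4, which reduces lipid hydroperoxides in membranes, at 1232 TPM, the thioredoxin inhibitor Txnip at 1079 TPM, and Mgst3 at 1009 TPM. In untreated cells at day 0 the first places went to the pi-class transferase Gstp1 at 791 TPM, the cytosolic thioredoxin Txn1 at 781 TPM, Gpx4 at 650.2 TPM and the cytosolic peroxiredoxin Prdx1 at 538 TPM, and Mgst1 stood at place 17 with 145 ± 8.35 TPM. Gstp1 shared 33.7% and Gpx4 34.7% of their 50-base stretches with other genes, so that their levels depend on how shared reads were assigned.

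Day 6 was set against day 0 in each arm to ask how the module changed with differentiation, and both arms gave a largely shared picture. The 3 membrane transferases, catalase, the 3 superoxide dismutases, the mitochondrial peroxiredoxin Prdx3 and the glutathione genes Gclc, Gclm and Gsr rose. The peroxidases Gpx1, Gpx3, Gpx7 and Gpx8 and several mu and theta transferases fell. In IL-13 pre-treated cells 26 members rose and 12 fell of 48 tested, 79.2% in all, where 80.8% of the 13157 genes tested were called, 40.6% higher and 40.3% lower. In untreated cells 28 rose and 16 fell, 91.7%, against 80.5% of all genes, 41.5% higher and 39% lower. The share in IL-13 pre-treated cells is that of the background, so the counts say little in themselves, and it is the direction and size of single members that carry the description. The median log2 fold change of members was 0.34 in IL-13 pre-treated and 0.41 in untreated cells, while that of all genes was 0.00 in IL-13 pre-treated and 0.04 in untreated cells. Day 6 and day 0 did not overlap for 37 of 48 members in IL-13 pre-treated cells, beside 74.8% of all genes, and for 42 of 48 in untreated cells, beside 75.5%. In all, 26 members rose and 12 fell in both arms, and none was called in opposite directions. These are bulk samples, in which a change in the number of cells of a type and a change in RNA per cell cannot be told apart, and all 10 mature adipocyte markers rose in both arms. Preadipocyte and fibroblast markers, which summed to 2075 to 2691 CPM in IL-13 pre-treated and 2144 to 2678 CPM in untreated cells at day 6, against 13100 to 14690 CPM in IL-13 pre-treated and 8510 to 11720 CPM in untreated cells at day 0, fell for 8 of 9 tested in IL-13 pre-treated and 6 of 9 in untreated cells. None of them rose in IL-13 pre-treated cells and 1 rose in untreated cells. Of the macrophage markers tested 3 of 4 fell in each arm, and 1 of 4 rose in IL-13 pre-treated cells. The macrophage list summed to 2.97 to 4.16 CPM in IL-13 pre-treated and 1.80 to 3.48 CPM in untreated cells at day 6, against 9.41 to 11.9 CPM in IL-13 pre-treated and 7.15 to 9.27 CPM in untreated cells at day 0, with Adgre1 and C1qa at 0. Of the endothelial markers tested 3 of 3 fell in each arm, with sums of at most 1.25 CPM at day 6 and 3.43 to 4.07 CPM at day 0. The part of these markers in the result was not tested.

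**Figure D2:**
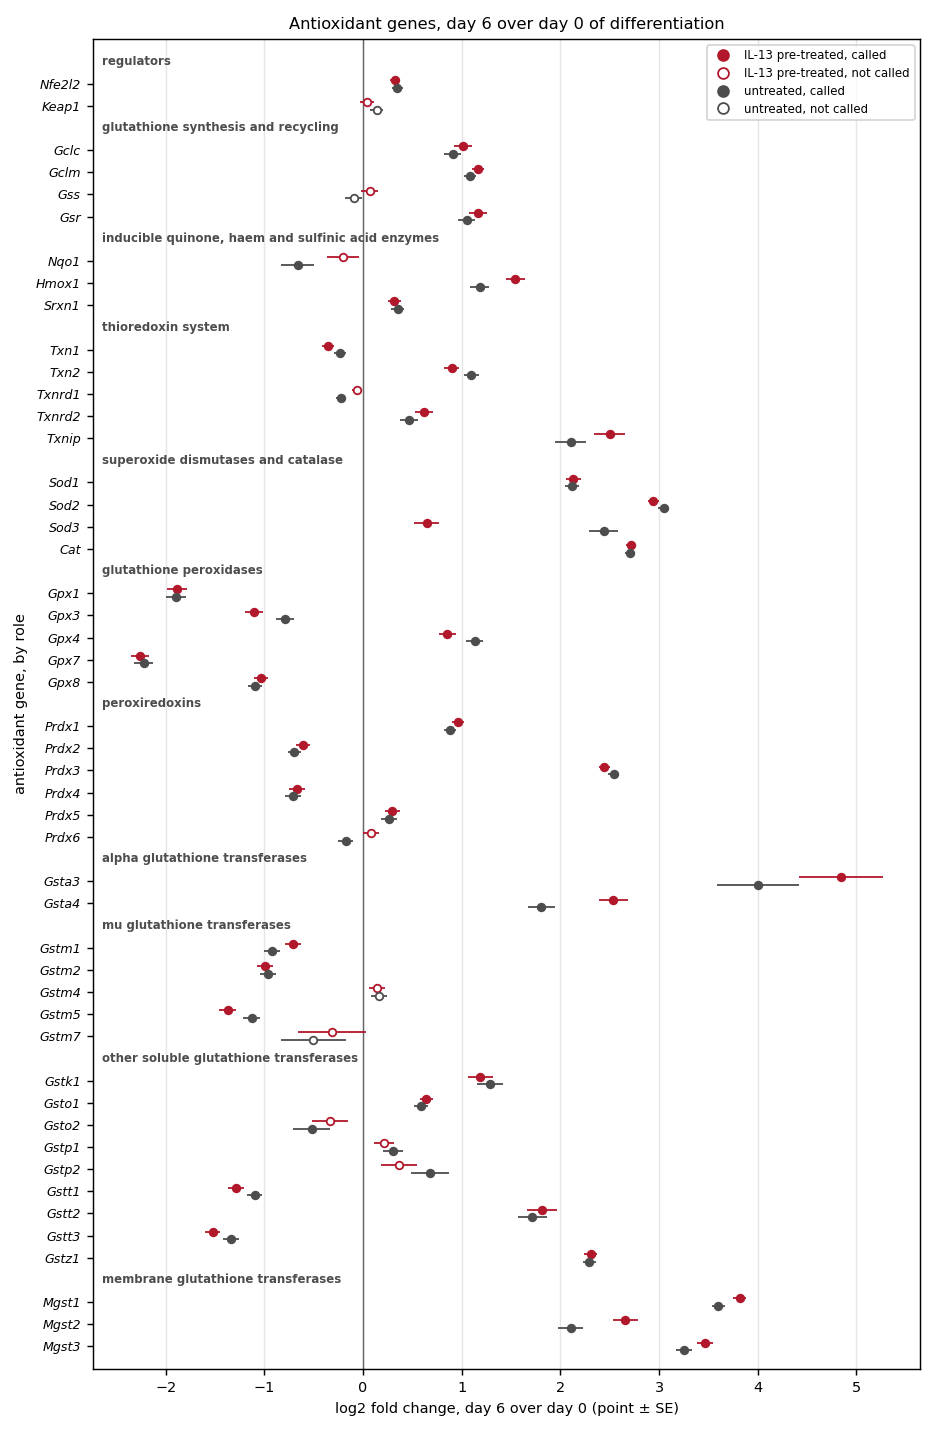
Log2 fold change of day 6 over day 0 for the 48 antioxidant genes tested, ordered by role, with IL-13 pre-treated cells in red above untreated cells in grey. Points show the estimate, bars its SE, and filled points passed an adjusted p of 0.05. The arms lie close together for most genes, from Mgst1 (3.82 in IL-13 pre-treated and 3.60 in untreated cells) down to Gpx7 (-2.26 in IL-13 pre-treated and -2.22 in untreated cells). The arms lie apart for Sod3 (0.64 in IL-13 pre-treated and 2.44 in untreated cells) and, by less, for Gsta4.

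The membrane transferases, which protect membranes from lipid peroxides and handle leukotrienes, all rose. Apart from the sparsely counted Gsta3, no member rose more than Mgst1 and Mgst3. Mgst1 (ENSMUSG00000008540, chr6:138140316-138156755 of mm10, plus strand) had 1207, 1038, 1194 and 1109.8 CPM in the IL-13 pre-treated libraries at day 6, against 77.9, 73.8, 84.8 and 85.8 CPM at day 0. In untreated cells it had 970.2, 989.5, 965 and 928 CPM at day 6, against 78.1, 83.8, 77.4 and 78.1 CPM at day 0. Every day 6 library lay more than an order of magnitude above every day 0 library. The rise was 14.1-fold in IL-13 pre-treated cells (log2 fold change 3.82, SE 0.07, adjusted p = 4.2e-21) and 12.1-fold in untreated cells (3.60, SE 0.07, adjusted p = 8.43e-21). Mgst3 rose 11.1-fold in IL-13 pre-treated and 9.54-fold in untreated cells, and Mgst2 6.32-fold in IL-13 pre-treated and 4.3-fold in untreated cells.

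All 4 superoxide dismutase and catalase genes rose in both arms. Catalase (ENSMUSG00000027187, chr2:103453849-103485160, minus strand), the peroxisomal enzyme that breaks down hydrogen peroxide, had 659, 612, 641 and 702 CPM in IL-13 pre-treated cells at day 6, against 99.2, 98.1, 99.9 and 101 CPM at day 0. Untreated cells had 649, 635, 649.5 and 663 CPM at day 6, against 99.7, 100.5, 98.8 and 99.2 CPM at day 0. Libraries of a group differed little, and the rise was 6.57-fold in IL-13 pre-treated and 6.52-fold in untreated cells. Sod2, the mitochondrial manganese enzyme, rose 7.7-fold in IL-13 pre-treated and 8.26-fold in untreated cells, and Sod1, the cytosolic copper-zinc enzyme, 4.38-fold in IL-13 pre-treated and 4.34-fold in untreated cells. Sod2 shared 21% of its 50-base stretches with other genes, so that its level depends on how shared reads were assigned. Sod3, the secreted dismutase of the extracellular matrix, rose 1.56-fold in IL-13 pre-treated cells (adjusted p = 7.18e-05) and 5.43-fold in untreated cells (adjusted p = 2.36e-12).

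Glutathione peroxidases, which use glutathione or thioredoxin to reduce peroxides, moved apart. Gpx4 rose 1.81-fold in IL-13 pre-treated and 2.19-fold in untreated cells. Gpx1, the abundant cytosolic peroxidase, had 38.8, 48.9, 56.6 and 44.5 CPM in IL-13 pre-treated cells at day 6, against 160.0, 183, 180.0 and 175 CPM at day 0. In untreated cells it had 38.1, 38.1, 45.1 and 41.5 CPM at day 6, against 135, 141, 169 and 161 CPM at day 0. Every day 6 library lay below every day 0 library, and the level was 3.69-fold lower at day 6 in IL-13 pre-treated and 3.72-fold lower in untreated cells. Gpx7 was 4.79-fold lower in IL-13 pre-treated and 4.67-fold lower in untreated cells. The secreted peroxidase Gpx3 was 2.16-fold lower in IL-13 pre-treated and 1.73-fold lower in untreated cells, and Gpx8 2.04-fold lower in IL-13 pre-treated and 2.14-fold lower in untreated cells.

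The peroxiredoxins, thiol enzymes that reduce hydrogen peroxide, divided in a similar way. Prdx3 had 448, 413, 441 and 446 CPM in IL-13 pre-treated cells at day 6, against 83.2, 80.4, 82.3 and 75.2 CPM at day 0. Untreated cells had 397, 389.5, 387 and 432 CPM at day 6, against 64.9, 72.6, 71.2 and 67.3 CPM at day 0. The days did not overlap in either arm, and the rise was 5.45-fold in IL-13 pre-treated and 5.82-fold in untreated cells. Prdx1 rose 1.94-fold in IL-13 pre-treated and 1.84-fold in untreated cells, and Prdx5 rose by 0.30 on the log2 scale in IL-13 pre-treated and 0.27 in untreated cells. Prdx2 fell by 0.61 in IL-13 pre-treated and 0.70 in untreated cells, and Prdx4 by 0.67 in IL-13 pre-treated and 0.71 in untreated cells. Prdx6 was called in untreated cells, where it fell by 0.18 (adjusted p = 0.0444). That call was lost without untreated library 3 of day 0 or untreated library 1 or 2 of day 6, with adjusted p of 0.2, 0.0965 and 0.0728.

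The thioredoxin system rose in its mitochondrial members and in its inhibitor. Txnip, which binds thioredoxin and limits glucose uptake, had 965, 933, 785 and 1229 CPM in IL-13 pre-treated cells at day 6, against 181, 159, 159 and 192 CPM at day 0. Untreated cells had 910.1, 961, 912 and 1449.7 CPM at day 6, against 258, 256, 215 and 255 CPM at day 0. Library 4 was the highest of both day 6 groups, the days did not overlap, and the rise was 5.65-fold in IL-13 pre-treated and 4.3-fold in untreated cells. Of its exon bases 19.4% overlap a gene on the opposite strand, and the use of strand in counting is not given. Txn2, the mitochondrial thioredoxin, rose 1.86-fold in IL-13 pre-treated and 2.14-fold in untreated cells, while Txn1 fell by 0.35 on the log2 scale in IL-13 pre-treated and by 0.23 in untreated cells. Txnrd1, the cytosolic thioredoxin reductase whose promoter is printed above, averaged 166 CPM in IL-13 pre-treated cells at day 6 against 173 CPM at day 0, and 176 against 207 CPM in untreated cells, where it was called lower.

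Genes of glutathione synthesis and recycling rose together in 3 of 4 cases. Gclm, the regulatory subunit of glutamate-cysteine ligase, averaged 71.3 ± 4.23 CPM at day 6 against 31.7 ± 0.916 CPM at day 0 in IL-13 pre-treated cells, and 65.5 ± 3.99 against 30.9 ± 1.38 CPM in untreated cells (SD, n = 4 each), rises of 2.25-fold in IL-13 pre-treated and 2.12-fold in untreated cells. Gclc, its catalytic subunit, rose 2.02-fold in IL-13 pre-treated and 1.88-fold in untreated cells, and Gsr, glutathione reductase, 2.25-fold in IL-13 pre-treated and 2.07-fold in untreated cells. Glutathione synthetase, Gss, was called in neither arm. Hmox1, haem oxygenase 1, rose 2.91-fold in IL-13 pre-treated and 2.27-fold in untreated cells. The sulfiredoxin Srxn1, which repairs overoxidized peroxiredoxins, rose by 0.32 on the log2 scale in IL-13 pre-treated and by 0.35 in untreated cells. The quinone reductase Nqo1, an established Nrf2 target, averaged 9.39 CPM at day 6 against 10.8 CPM at day 0 in IL-13 pre-treated cells, which was not called. In untreated cells it averaged 7.29 against 11.6 CPM and fell by 0.67 (adjusted p = 0.00125). Without IL-13 library 2 of day 6 the IL-13 pre-treated arm was called too, at -0.38 (adjusted p = 0.0271). Nfe2l2 itself rose 1.25-fold in IL-13 pre-treated and 1.27-fold in untreated cells and Keap1 was called in neither arm. Keap1 had a log2 fold change of 0.14 in untreated cells, and without untreated library 3 of day 0 this was 0.17 and called (adjusted p = 0.0376).

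Soluble transferases differed by class. Both tested alpha members rose. Gsta4, which conjugates the lipid peroxidation product hydroxynonenal, rose 5.8-fold in IL-13 pre-treated and 3.5-fold in untreated cells, and Gsta3 had 156 counts in all at day 6 against 5 at day 0 in IL-13 pre-treated and 108 against 7 in untreated cells, too few at day 0 for a firm fold. Of the 5 mu members tested, which lie together at the Gstm cluster on chromosome 3, Gstm1, Gstm2 and Gstm5 fell in both arms, by 1.63-fold to 2.59-fold in IL-13 pre-treated and 1.90-fold to 2.19-fold in untreated cells, and none rose in edgeR, at an unadjusted p under 0.05 or with DESeq2. Gstm1 shared 18.9% of its 50-base stretches with other genes. The theta genes lie side by side on chromosome 10 (Gstt3 chr10:75774115-75781414, Gstt1 chr10:75783813-75798584, Gstt2 chr10:75831114-75837424) and did not move together. Gstt2 rose 3.52-fold in IL-13 pre-treated and 3.29-fold in untreated cells, whereas Gstt3 was 2.88-fold lower at day 6 in IL-13 pre-treated and 2.53-fold lower in untreated cells, and Gstt1 2.45-fold lower in IL-13 pre-treated and 2.14-fold lower in untreated cells. Gstz1, the zeta member that also acts in tyrosine breakdown, rose 4.95-fold in IL-13 pre-treated and 4.9-fold in untreated cells. Gstp1 was called in untreated cells, with a log2 fold change of 0.30, and lost that call without untreated library 1 or 2 of day 0 or untreated library 3 or 4 of day 6, with adjusted p between 0.058 and 0.0857.

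Among the 10 members with the Nrf2 core in their promoter window, 7 rose and 1 fell in IL-13 pre-treated cells and 7 rose and 2 fell in untreated cells. Among the 31 tested members whose window lacks it, 13 rose and 11 fell in IL-13 pre-treated cells and 15 rose and 13 fell in untreated cells. Among all genes 40.6% rose and 40.3% fell in IL-13 pre-treated cells, and 41.5% rose and 39% fell in untreated cells. In IL-13 pre-treated against untreated cells at day 0, 3 of 9 members with the core were higher and 1 lower, and 17 of 31 without it were higher and 1 lower, beside 23.7% of all genes higher and 24.2% lower. At day 6, 3 of 10 with the core and 3 of 31 without it were higher and none lower by edgeR, beside 2.21% of all genes higher and 4.34% lower. These counts are a description and were not tested. They leave out Gclc, Gsr, Gsta4 and Hmox1, which were lower at day 0, and Sod3, which was higher, because these had no window. Gclm, Mgst1 and Prdx1 were among those that rose and Txnrd1 was among those that fell in untreated cells.

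IL-13 pre-treated cells were set against untreated cells at day 0, before differentiation. Sod3 was 3.95-fold higher, the largest change in the module, and Gpx3, Gpx4, the pi transferase Gstp2 and the mitochondrial thioredoxin Txn2 were 1.33-fold to 1.56-fold higher. The alpha transferase Gsta4, Txnip, Gclc, Hmox1, Txnrd1 and Gsr fell. Of 47 members tested, 21 were higher and 6 lower, 57.4% in all, beside 47.9% of the 12274 genes tested, of which 23.7% were higher and 24.2% lower. The median log2 fold change was 0.16 for members and -0.01 for all genes. The 2 groups did not overlap for 24 of the 47 members, beside 40.8% of all genes. With libraries scaled by their total counts, the median of all genes was -0.13, 12 members were higher and 8 lower, and 18 of the 27 calls were kept. Leaving out untreated libraries 1 and 4, those of this day with the highest nuclear RNA index, left 15 calls, and a fit with the index as a covariate left 3. Calls over all genes fell as well, from 2912 higher and 2969 lower to 1811 and 1674 without those libraries. With the covariate 475 of all genes were higher and 428 lower.

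Sod3 (ENSMUSG00000072941, chr5:52363791-52371418, plus strand) had 9.59, 7.86, 8.49 and 8.62 CPM in the IL-13 pre-treated libraries, against 2.02, 2.53, 2.06 and 2.17 CPM in the untreated libraries, with CPM scaled within the day for the comparisons of IL-13. The lowest IL-13 library lay more than 3-fold above the highest untreated one. On the log2 scale Sod3 was higher by 1.98 (SE 0.13, adjusted p = 9.34e-09), and by 2.01 in the fit with the nuclear index (adjusted p = 5.21e-05).

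Of the 5 glutathione peroxidases tested, 4 were higher and none lower in edgeR, 5 higher and 0 lower at an unadjusted p under 0.05, and 4 higher and 0 lower with DESeq2. Gpx4 (ENSMUSG00000075706, chr10:80047166-80056439, plus strand) had 434, 466, 484 and 453 CPM in IL-13 pre-treated cells and 285, 305, 346 and 319 CPM in untreated cells, without overlap. The log2 fold change was 0.55 (SE 0.06, adjusted p = 7.28e-06) and stayed called with the covariate, at 0.33 (adjusted p = 0.0285). Gpx3 (ENSMUSG00000018339, chr11:54902453-54910377, plus strand) had 231, 242, 263 and 229.7 CPM in IL-13 pre-treated and 136, 162, 183 and 146 CPM in untreated cells, again without overlap, and was higher by 0.62 on the log2 scale (SE 0.08, adjusted p = 4.99e-05). In the fit with the nuclear index Gpx3 was at 0.21 and not called (adjusted p = 0.16). Gpx1 was higher by 0.19 (adjusted p = 0.0382), a call lost without untreated library 1 or 2 or IL-13 library 2, 3 or 4 (adjusted p 0.119, 0.114, 0.109, 0.0847 and 0.073), and it was among the 9 calls lost under scaling by total counts.

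Other members moved less. Srxn1 had 86.2, 82.3, 82.1 and 82 CPM in IL-13 pre-treated and 63.1, 67.6, 68.1 and 65.1 CPM in untreated cells, higher by 0.33 on the log2 scale (SE 0.05, adjusted p = 7.48e-05). Txn2 averaged 142 ± 9.76 CPM in IL-13 pre-treated and 107 ± 8.98 CPM in untreated cells, and its log2 fold change was 0.42. The groups overlapped for neither gene. Prdx2, Prdx3 and Prdx4, Sod1 and Sod2, and Txn1 were each higher by 0.19 to 0.24, and all of these calls were lost both under scaling by total counts and without untreated libraries 1 and 4. Keap1, the inhibitor of Nrf2, averaged 75.5 ± 2.06 CPM in IL-13 pre-treated and 62.6 ± 2.97 CPM in untreated cells (log2 fold change 0.27, adjusted p = 0.000626), while Nfe2l2 averaged 87.9 ± 4.5 CPM in IL-13 pre-treated and 87.6 ± 1.97 CPM in untreated cells (0.00, adjusted p = 0.953). Gstp1 was higher by 0.36 and Gstp2, which shares 54.3% of its 50-base stretches with other genes, by 0.64. Gstm5 averaged 52.1 ± 2.44 CPM in IL-13 pre-treated and 41.3 ± 4.15 CPM in untreated cells and was higher by 0.34. None of these genes was called in the fit with the nuclear index, with Srxn1 at 0.25 (adjusted p = 0.105), Txn2 at 0.15 (0.431), Keap1 at 0.17 (0.361), Gstp1 at 0.03 (0.924), Gstp2 at 0.45 (0.491) and Gstm5 at 0.07 (0.822). Gstp1 also lost its call without untreated libraries 1 and 4, at 0.28 (adjusted p = 0.0586).

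The 6 members that fell were led by Gsta4 and Txnip. Txnip (ENSMUSG00000038393, chr3:96557957-96561883, plus strand) had 185, 162, 161 and 198 CPM in IL-13 pre-treated and 268, 263, 219.8 and 265 CPM in untreated cells, a difference of -0.52 on the log2 scale (SE 0.08, adjusted p = 0.000125). Hmox1 had 80.6, 83.8, 82.9 and 82.6 CPM in IL-13 pre-treated and 93.8, 97.4, 109 and 105 CPM in untreated cells (-0.29, SE 0.05, adjusted p = 0.000499), and -0.43 with the covariate (adjusted p = 0.00257). Gsta4 (ENSMUSG00000032348, chr9:78182774-78209349, plus strand) had 2.26, 3.03, 3.55 and 3.29 CPM in IL-13 pre-treated and 4.94, 4.86, 5.23 and 4.34 CPM in untreated cells (-0.67, SE 0.15, adjusted p = 0.00207). For these 3 genes the groups did not overlap. Txnrd1 averaged 177 ± 9.15 CPM in IL-13 pre-treated and 213 ± 4.76 CPM in untreated cells (-0.27), and Gclc 19.7 ± 1.69 CPM in IL-13 pre-treated and 25 ± 1.67 CPM in untreated cells (-0.34), both without overlap. Gsr had 27, 30.1, 25.1 and 34.3 CPM in IL-13 pre-treated and 36, 30.9, 34 and 36.1 CPM in untreated cells, which overlap, with a log2 fold change of -0.24 (adjusted p = 0.0407). The Gsr call was lost without untreated library 1 or 4 or IL-13 library 1, 2 or 3, with adjusted p between 0.0637 and 0.135. In the fit with the nuclear index Gsta4 was at -0.89 (adjusted p = 0.0512), Txnip at -0.23 (0.285), Txnrd1 at -0.21 (0.187), Gclc at -0.12 (0.741) and Gsr at -0.09 (0.858), none of them called. Gclc was also lost without untreated libraries 1 and 4 (adjusted p = 0.0577). Cat, Gclm, Mgst1 and Nqo1 were not called, at -0.02, 0.02, 0.01 and -0.12, but Cat was called lower under scaling by total counts, at -0.14 (adjusted p = 0.029).

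**Figure D3:**
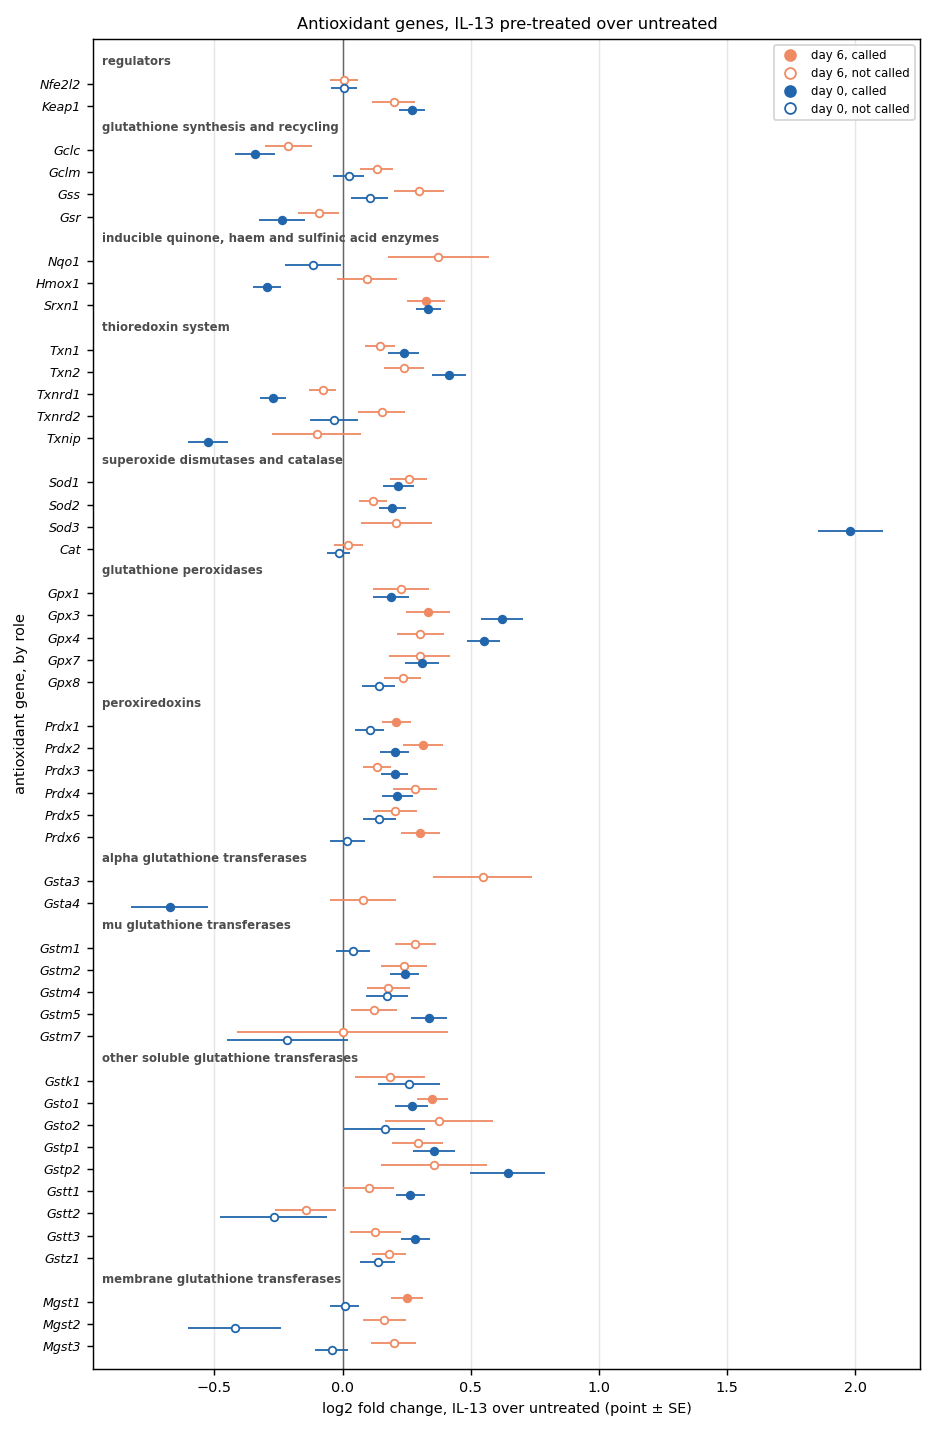
Log2 fold change of IL-13 pre-treated over untreated cells for each antioxidant gene tested, ordered by role, with day 6 in orange above day 0 in blue. Points show the estimate, bars its SE, and filled points passed an adjusted p of 0.05. Sod3 stands apart at day 0 with 1.98, and at day 6 the 7 filled points lie between 0.21 and 0.35.

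Markers and nuclear RNA moved with IL-13 at day 0 as well. Summed preadipocyte and fibroblast markers ranged from 13100 to 14690 CPM in IL-13 pre-treated and from 8510 to 11720 CPM in untreated cells. Of the 9 markers tested 6 were higher and none lower, beside 23.7% of all genes higher and 24.2% lower. At an unadjusted p under 0.05 the edgeR test also gave 6 higher and 0 lower, as did DESeq2. Of the 26 nuclear RNAs 23 were lower in IL-13 pre-treated cells and none higher. Of 5 mature adipocyte markers tested 1 was higher and 2 lower, and of 4 macrophage markers 1 was higher and 1 lower. The part of the fibroblast markers in the members' changes was not tested.

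At day 6 the cells pre-treated with IL-13 and the untreated adipocytes were set against each other to ask what was left of the difference. Of 48 members tested 7 were higher and 0 lower, 14.6%, beside 6.55% of the 12352 genes tested, of which 2.21% were higher and 4.34% lower. At an unadjusted p under 0.05 the edgeR test gave 25 members higher and 1 lower, where 3325 of all 12352 genes passed in either direction. DESeq2 called 11 members higher and 0 lower, and of all genes 583 higher and 853 lower. The median log2 fold change was 0.20 for members and 0.01 for all genes, and the groups did not overlap for 11 of 48 members, beside 16% of all genes. The 7 were Gsto1, Gpx3, Srxn1, Prdx2, Prdx6, Mgst1 and Prdx1, and each was at most 1.28-fold higher. Gpx3, Gsto1, Prdx2 and Srxn1 were also higher at day 0.

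The day 6 calls depended on single libraries. Without untreated library 1, 2, 3 or 4 the count was 0, 0, 3 and 5, and without IL-13 library 1, 2, 3 or 4 it was 15, 0, 1 and 2. Calls over all genes shifted too. They were 5 higher and 97 lower without untreated library 1, 5 and 55 without library 2, 90 and 433 without library 3, and 264 and 524 without library 4. Without IL-13 library 1, 2, 3 or 4 they were 988 and 1340, 4 and 58, 19 and 186, and 52 and 268. Without both untreated libraries 1 and 2, those of this day highest in nuclear RNA, the count of members was 0. In a fit with the nuclear index it was 0 as well. Without both libraries the edgeR test called 2 genes of all, and with the index it called none. Scaling by total counts left Gsto1, and DESeq2 and the fit without a filter on low counts each gave 11. At day 6, 19 of the 26 nuclear RNAs were lower in IL-13 pre-treated cells, beside 4.34% of all genes.

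Gsto1, an omega transferase that reduces dehydroascorbate, had 229, 244, 255 and 224 CPM in IL-13 pre-treated and 174, 187, 193 and 193 CPM in untreated cells, without overlap (log2 fold change 0.35, SE 0.06, adjusted p = 0.0134). Srxn1 had 99.4, 112, 96.8 and 89.4 CPM in IL-13 pre-treated and 72.5, 83.5, 82.8 and 78.3 CPM in untreated cells (0.33, adjusted p = 0.0327). Mgst1 had 1170.0, 1021, 1175 and 1090.5 CPM in IL-13 pre-treated and 944, 957, 943 and 899.6 CPM in untreated cells (0.25, adjusted p = 0.0356). In these 3 genes all 4 IL-13 libraries lay above all 4 untreated ones. Gpx3 averaged 108 ± 13.6 CPM in IL-13 pre-treated and 85.3 ± 4.15 CPM in untreated cells (0.33, adjusted p = 0.0408). Prdx1 averaged 921 ± 43.9 CPM in IL-13 pre-treated and 797 ± 29.6 CPM in untreated cells (0.21, adjusted p = 0.0498). Prdx2 and Prdx6 were higher by 0.31 and 0.30. Sod3, at 13 ± 2.21 CPM in IL-13 pre-treated and 11.2 ± 1.62 CPM in untreated cells, was not called (0.21, adjusted p = 0.347), nor was Gpx4 (0.30, adjusted p = 0.0638), which was called without IL-13 library 1 (0.36, adjusted p = 0.0113), with DESeq2 (0.29, adjusted p = 0.0294) and with no filter on low counts (0.31, adjusted p = 0.0435). Gsta4 (0.08), Cat (0.02), Nfe2l2 (0.01), Keap1 (0.20) and Gclc (-0.21) were not called.

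Whether the IL-13 difference itself changed between the days was tested as an interaction over all 16 libraries. It was called for 2 of 48 members, or 4.17%, beside 8.06% of the 13157 genes tested, 3.12% higher and 4.95% lower. In Sod3 the difference was smaller at day 6 than at day 0 by 1.80 on the log2 scale (interaction -1.80, SE 0.19, adjusted p = 1.56e-06). In the scaling over all 16 libraries Sod3 had 10.3, 13.6, 15.6 and 13.5 CPM in IL-13 pre-treated and 10.6, 9.86, 13.4 and 12.4 CPM in untreated cells at day 6, which overlap. At day 0 it had 9.41, 7.73, 8.37 and 8.37 CPM in IL-13 pre-treated and 1.95, 2.46, 2.02 and 2.09 CPM in untreated cells. The untreated cells at day 0 were lowest, with no library above 2.46 CPM. Leaving out each library in turn gave between -1.83 and -1.64 for Sod3.

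Gsta4 was the other member called, with an interaction of 0.73 (SE 0.21, adjusted p = 0.0322). It had 18.3, 15.8, 16.9 and 18 CPM in IL-13 pre-treated and 12.3, 15.6, 17.8 and 20.0 CPM in untreated cells at day 6, and 2.22, 2.98, 3.5 and 3.2 CPM in IL-13 pre-treated and 4.76, 4.74, 5.12 and 4.18 CPM in untreated cells at day 0. The day 6 groups overlap and the day 0 groups do not. The call was lost without untreated library 1 or 3 of day 0 or IL-13 library 1 of day 0 (adjusted p 0.0516, 0.0561 and 0.0671). The count of members called was 1 without untreated library 1 of day 0 or IL-13 library 1 of day 0, and 5 without untreated library 4 of day 6, without IL-13 library 1 of day 6 or with DESeq2.

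**Figure D4:**
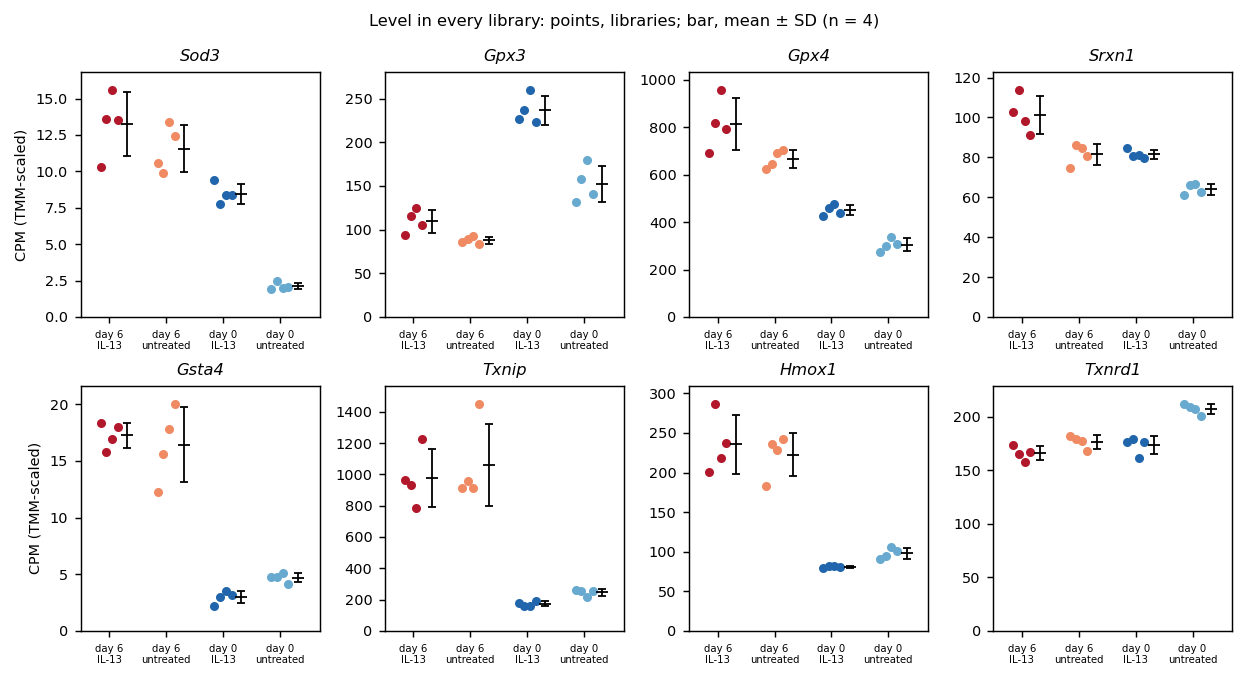
CPM of 8 antioxidant genes in every library, scaled over all 16 libraries, with a point for each library and a bar at the mean ± SD (n = 4). In each panel the groups run from IL-13 pre-treated and untreated cells at day 6 to IL-13 pre-treated and untreated cells at day 0. Sod3 lies between 1.95 and 2.46 CPM in untreated cells at day 0 and at 7.73 CPM or more in the other groups, Gpx3 is highest in IL-13 pre-treated cells at day 0, and Txnip and Gsta4 are low at day 0 and lower still after IL-13.

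Genes that feed the module were described from lists. Of all genes tested, 40.6% rose and 40.3% fell by day 6 in IL-13 pre-treated cells and 41.5% rose and 39% fell in untreated cells. In IL-13 pre-treated against untreated cells 23.7% were higher and 24.2% lower at day 0, and 2.21% higher and 4.34% lower at day 6. NADPH, which glutathione and thioredoxin reductases consume, is made by enzymes of which all 10 tested rose at day 6 in both arms and none fell, also at an unadjusted p under 0.05 and with DESeq2. The malic enzyme Me1 rose 22.2-fold in IL-13 pre-treated and 20.2-fold in untreated cells, the pentose phosphate enzyme Taldo1 7.54-fold in IL-13 pre-treated and 8.67-fold in untreated cells, and the cytosolic isocitrate dehydrogenase Idh1 4.29-fold in IL-13 pre-treated and 3.64-fold in untreated cells. At day 0, 6 of 10 were higher and 1 lower in IL-13 pre-treated cells, with Pgd at 227 ± 15.1 CPM in IL-13 pre-treated and 161 ± 17.2 CPM in untreated cells (1.42-fold). At day 6, 2 of 10 were higher, G6pdx by 0.25 and Pgd by 0.32 on the log2 scale.

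Among 15 tested genes of glutathione supply and turnover, 10 rose and 4 fell by day 6 in IL-13 pre-treated cells and 12 rose and 1 fell in untreated cells, where 80.8% of all genes in IL-13 pre-treated and 80.5% in untreated cells were called in either direction. Cth, which makes cysteine from cystathionine, had 83 ± 9.85 CPM at day 6 against 10.8 ± 1.28 CPM at day 0 in IL-13 pre-treated cells, and 88.8 ± 5.36 against 5.55 ± 0.289 CPM in untreated cells, rises of 7.65-fold in IL-13 pre-treated and 16-fold in untreated cells. Oplah, which recycles oxoproline to glutamate, rose 10.5-fold in IL-13 pre-treated and 7.35-fold in untreated cells. At day 0, 9 of 15 were higher and 1 lower in IL-13 pre-treated cells, with a median of 0.43. The largest was Ggt5, a gamma-glutamyl transferase that cleaves extracellular glutathione conjugates, at 146 ± 9.16 CPM in IL-13 pre-treated and 61.3 ± 7.33 CPM in untreated cells (2.39-fold). At day 6 none of the 15 was called by edgeR, with 1 higher and 2 lower at an unadjusted p under 0.05, and DESeq2 called 0 higher and 1 lower. The interaction, which called 3.12% of all genes higher and 4.95% lower, called 1 gene of the list higher and 6 lower, among them Ggt5 (-1.37), Cth (-1.06) and the dipeptidase Dpep1 (-0.71).

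Of other Nrf2 targets and conjugating enzymes, 14 of 24 were higher and 1 lower in IL-13 pre-treated cells at day 0, beside 23.7% of all genes higher and 24.2% lower. At day 6, 8 of 25 were higher and none lower by edgeR, beside 2.21% of all genes higher and 4.34% lower. There DESeq2 called 9 of the list higher and 0 lower, and an unadjusted edgeR p under 0.05 gave 14 higher and 1 lower. Over all genes DESeq2 called 583 higher and 853 lower, and 3325 of 12352 passed the unadjusted edgeR threshold. The ferritin heavy chain Fth1 had 2007 ± 146 CPM in IL-13 pre-treated and 1249.9 ± 158 CPM in untreated cells at day 0 (1.61-fold), and 2377 ± 202 CPM in IL-13 pre-treated and 1893 ± 83.2 CPM in untreated cells at day 6 (1.26-fold). Aldose reductase Akr1b3 was 1.39-fold higher at day 0 and 1.26-fold higher at day 6. The aldehyde oxidase Aox1 was lower at day 0, at 2.76 ± 0.424 CPM in IL-13 pre-treated and 5.9 ± 0.615 CPM in untreated cells. Between days, 13 of 25 rose and 6 fell in each arm, where 80.8% of all genes in IL-13 pre-treated and 80.5% in untreated cells were called.

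Of the partners and repressors of Nrf2, 6 of 11 were lower and 2 higher in IL-13 pre-treated cells at day 0, where 24.2% of all genes were lower and 23.7% higher. The repressor Bach2 had 4.54 ± 0.959 CPM in IL-13 pre-treated and 13.2 ± 1.67 CPM in untreated cells (log2 fold change -1.54), and the small Maf genes Maff and Mafk were lower by 0.63 and 0.38. At day 6 Mafg was called lower (-0.29) and no gene of that list higher, with 1 higher and 2 lower at an unadjusted p under 0.05 and 0 higher and 1 lower with DESeq2. Between days 6 of 12 rose and 3 fell in IL-13 pre-treated cells and 7 rose and 4 fell in untreated cells. The share of all genes called was 80.8% in IL-13 pre-treated and 80.5% in untreated cells.

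Of the oxidant sources and the copper chaperone of Sod1, xanthine dehydrogenase, Xdh, which can make superoxide and hydrogen peroxide, had 397 ± 18.9 CPM in IL-13 pre-treated and 109 ± 6.96 CPM in untreated cells at day 0 (3.63-fold). At day 6 it had 102 ± 3.32 CPM in IL-13 pre-treated and 95.1 ± 3.45 CPM in untreated cells and was not called, and its interaction was -1.79. The NADPH oxidase Nox4 was lower at day 0, at 1.94 ± 0.612 CPM in IL-13 pre-treated and 3.87 ± 0.501 CPM in untreated cells. None of that list rose between days by edgeR in either arm, at an unadjusted p under 0.05 or with DESeq2, and 4 of 5 fell in IL-13 pre-treated and 3 of 5 in untreated cells. Glutaredoxins and thioredoxin relatives were higher in 6 and lower in 2 of 13 at day 0, beside 23.7% of all genes higher and 24.2% lower, led by the glutaredoxin Glrx at 36.5 ± 2.97 CPM in IL-13 pre-treated and 20 ± 1.64 CPM in untreated cells (1.83-fold). Methionine sulfoxide reductases and sestrins were lower in 3 of 7 at day 0, with none higher at an unadjusted p under 0.05 or with DESeq2. By day 6, 2 of the 7 rose and 3 fell in IL-13 pre-treated cells, and 2 rose and 5 fell in untreated cells. Among all genes 80.8% in IL-13 pre-treated and 80.5% in untreated cells were called in either direction. Msra was among those that rose, 9.46-fold in IL-13 pre-treated and 9.21-fold in untreated cells. Of the selenoprotein machinery, 5 of 17 were higher and 2 lower at day 0, beside 47.9% of all genes called in either direction, and the selenium carrier Selenop was lower, at 197 ± 19 CPM in IL-13 pre-treated and 310.0 ± 18.3 CPM in untreated cells.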

How the data were processed

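The deposited tables hold counts, CPM, RPKM and TPM per gene and library. Read counts and TPM of the authors' tables were used, and 32 further columns of RPKM and CPM were not. Per the labels' protocols, 2 ug of total RNA was made into stranded mRNA libraries. The genome build was mm10, per the submitters' processing notes. The sources used here do not give the aligner, the counter, the annotation or the use of strand in counting.

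Counts as deposited were fitted with the edgeR quasi-likelihood test (edgeR 4.0.16, limma 3.58.1, R 4.3.3; robust fit, TMM scaling, filterByExpr at a count of 10 and a total of 15). Each day was fitted alone for IL-13, and all 16 libraries together for days and the interaction. P-values were adjusted by Benjamini-Hochberg over all genes tested, and genes under an adjusted p of 0.05 were called. SE is the log2 fold change divided by the root of F. CPM are TMM-scaled. TPM of the authors served for levels between genes and for sums over the members and roles, which were set beside each other between groups. They entered no test. DESeq2 1.42.0, other scalings, no filter, a replicate block, a nuclear RNA covariate with a prior count of 2 and left-out libraries were alternatives. The scripts were tested on simulated data. Replicate libraries differed by more than counting noise, with a chi-square per degree of freedom of at least 3.87.

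Genes named per comparison were taken from up to 8 of the largest called members in each direction whose mean log2 CPM was 1 or more, and a panel of 30 genes, of which those not called are in part given only by counts and in the plots. Up to 3 genes of a list were named per comparison. The members, panel and lists were chosen with earlier results of these data known. Sequences are RefSeq's (GRCm38.p6), and coordinates of 54 members equal those of GENCODE.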

Additional observations from a re-analysis of the deposited data

Results flagged for a closer look

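Libraries were compared within each group of 4, in CPM scaled within the day. In 11 of 164 such groups the highest or lowest library stood apart from the other 3 by more than Dixon's 95% limit, and chance alone gives about 1 in 20 groups. At day 6, Prdx6 was low in IL-13 library 1 (162.3 CPM, the others 186.4 to 191.2) and Prdx3 in IL-13 library 2 (407 CPM, the others 433.7 to 438.5). In untreated cells at day 6, Txnip was high in library 4 (1405 CPM, the others 885 to 929.1), Nfe2l2 low in library 4 (100.2 CPM, the others 106.4 to 107.5) and Gclm high in library 2 (69.11 CPM, the others 61.42 to 62.1). At day 0, Srxn1 was high in IL-13 library 1 (86.16 CPM, the others 81.97 to 82.25) and Txnrd1 low in IL-13 library 3 (163.1 CPM, the others 179.5 to 182.5). In untreated cells at day 0, library 3 was low for Cat (100.9 CPM, the others 103 to 103.3) and Txnip (219.8 CPM, the others 262.9 to 267.9) and high for Keap1 (66.95 CPM, the others 60.49 to 61.55). Gstp2 was low in library 4 of the same group (2.671 CPM, the others 3.133 to 3.174).

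The effect of IL-13 differed between the days in 2 members by the interaction test. For Sod3 the interaction was -1.797 on the log2 scale, with levels of 13.3 ± 2.17 CPM in IL-13 pre-treated and 11.6 ± 1.63 CPM in untreated cells at day 6 and 8.47 ± 0.696 CPM in IL-13 pre-treated and 2.13 ± 0.231 CPM in untreated cells at day 0. For Gsta4 it was 0.7281, with 17.2 ± 1.12 CPM in IL-13 pre-treated and 16.4 ± 3.29 CPM in untreated cells at day 6 and 2.97 ± 0.548 CPM in IL-13 pre-treated and 4.7 ± 0.391 CPM in untreated cells at day 0. No cause of either was tested.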

How the results depend on the processing

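For the 2 comparisons of days the number of members called stayed within 1.5 times under every alternative tried, between 38 and 41 in IL-13 pre-treated and 43 and 44 in untreated cells with 1 library left out. At day 0, 25 to 30 members were called with 1 library left out, against 27 with all, 15 without untreated libraries 1 and 4, and 3 with the nuclear RNA covariate. At day 6, 0 to 15 were called with 1 library left out, against 7 with all, 11 with no filter on low counts, 11 with DESeq2, 1 with total counts, and 0 with the covariate or without untreated libraries 1 and 2. Over all genes at day 6, edgeR called 273 higher and 536 lower, DESeq2 583 and 853, and total counts 53 and 1032. At day 0 edgeR called 2912 of all genes higher and 2969 lower. It called 1811 and 1674 without untreated libraries 1 and 4, and 475 and 428 with the covariate. For the interaction, 1 to 5 members were called with 1 library left out, against 2 with all and 5 with DESeq2. The causes of these shifts were not tested.

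The labels do not say whether the replicate numbers pair the libraries, and these values do not decide it. Same-numbered libraries deviated together with correlations of 0.236, -0.101, 0.252 and 0.0901 at day 0 and 0.274, 0.0239, 0.249 and 0.277 at day 6. Differently numbered libraries ranged from -0.239 to 0.156 at day 0 and from -0.311 to 0.328 at day 6. The highest of these was IL-13 library 1 of day 6 with untreated library 2. With the replicate block, 23 members were called at day 6 (22 higher, 1 lower), 8 for the interaction, 30 at day 0, and 40 and 45 between days in IL-13 pre-treated and untreated cells. Under the block Gpx4 (adjusted p 0.00231), Keap1 (0.0306) and Gclc (0.0214) were also called at day 6, and Keap1 between days in untreated cells (0.0319). Over all genes the block gave 1342 higher and 1470 lower at day 6.

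Signs turned round for small changes. At day 0, total counts gave Gclm -0.10, Mgst1 -0.11 and Nfe2l2 -0.12, the covariate gave Cat 0.0155, Gpx1 -0.0055 and Sod1 -0.0305, and leaving out untreated libraries 1 and 4 gave Mgst1 -0.0017. With 1 library left out, Mgst1 ranged from -0.0266 to 0.0503 and Nfe2l2 from -0.0265 to 0.0340. At day 6, total counts gave Cat -0.0660, Gsta4 -0.0051 and Nfe2l2 -0.0823, and the covariate gave Gclc 0.21, Gpx3 -0.0595, Gpx4 -0.20, Gsta4 -0.24, Keap1 -0.16, Prdx2 -0.10, Prdx6 -0.016 and Sod3 -0.55. Leaving out untreated libraries 1 and 2 gave Cat -0.0091 and Gsta4 -0.14, and Nfe2l2 was -0.0036 with RLE size factors and -0.0034 with DESeq2. With 1 library left out, Cat ranged from -0.0142 to 0.0512, Gsta4 from -0.0337 to 0.19 and Nfe2l2 from -0.0452 to 0.0158. Depth limits the members with few counts, Gsta3 and the 10 members that were not tested.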
